A study of Mus musculus with 54 samples.

Results

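The genes described here are the protein-coding mouse genes named Zfp followed by a number, a name given to members of the zinc finger protein superfamily. Zfp36, an RNA-binding protein of another fold family, was left out. A gene was taken when its counts summed to at least 5400 over all libraries, which gave 189 of the 364 protein-coding Zfp genes, among 52636 gene identifiers in the tables. The sum includes treated libraries, so a gene that is almost silent at rest can be a member through its treated level. Zfp788, Zfp846 and Zfp810 lay just inside the threshold with 5441, 5427 and 5417 counts, and Zfp867, Zfp850 and Zfp398 lay just outside it with 5371, 5331 and 5319 counts. All 189 genes passed the filter on low counts, and 185 of them had a count in every library.

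The RNA came from bone marrow-derived macrophages (BMDMs), cells grown from mouse femur and tibia marrow in M-CSF. The KO groups carried a knockout of N4bp1, which encodes an RNA-binding inhibitor of NF-kB signalling, and the WT groups came from C57BL/6N mice. Each genotype was treated with R837 (imiquimod, a TLR7 agonist) or with Pam3 (Pam3CSK4, a lipopeptide agonist of TLR2) for 2, 4, 6 or 8 h, or was left untreated, which gave 18 groups of 3 libraries and 54 libraries in all. All groups shared the M-CSF culture, and per the labels the 3 replicates of a group were cultures of separate mice. The strain of the KO mice, their age and the design of the deletion are not stated by the labels.

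Most Zfp genes encode proteins with arrays of C2H2 fingers, in which a pair of cysteines and a pair of histidines hold a zinc ion and each finger can read a few bases of DNA. Many also carry a KRAB domain, which recruits the corepressor TRIM28 (KAP1) and through it the histone methyltransferase SETDB1 and heterochromatin proteins. KRAB zinc finger proteins are known above all for silencing retrotransposons and for imprinting, and their genes lie in clusters that expanded by tandem duplication. A smaller group carries a SCAN domain, through which such proteins pair with each other.

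Protein sequences translated from the reference annotation were searched for these features. At least 1 C2H2 finger was found in 97.9% of the 189 proteins, against 4.21% of 12137 other tested protein-coding genes. A KRAB-like stretch was found in 93 Zfp proteins, or 49.2%, against 1.19% of the other genes. The consensus for that stretch was built from 75 of the same 189 proteins, so this contrast was partly set by the search. These 93 proteins had a median of 12 fingers. A further 65 had no such stretch and at least 5 fingers (median 10), up to 40 in Zfp142, and 31 had no such stretch and fewer than 5 fingers (median 2). The last class holds proteins with other known work, such as Zfp207 and Zfp622, and 4 genes in it, Zfp703, Zfp330, Zfp839 and Zfp503, had no match to the finger pattern. A SCAN-like stretch was found in 9 proteins, those of Zfp263, Zfp445, Zfp24, Zfp110, Zfp397, Zfp444, Zfp369, Zfp213 and Zfp202.

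Chromosomes 7 and 17 held 44 and 29 of the genes, followed by chromosomes 8, 9 and 13 with 15, 14 and 12. Runs of at least 5 of these genes with gaps of no more than 500 kb formed 7 clusters with 61 genes, of which 48 had a KRAB-like stretch. The largest cluster, at chr17:21008903-23564238 (GRCm38), held 17 genes, 16 of them KRAB-like.

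Promoter windows from RefSeq (GRCm38.p6) were available for 153 of the 189 genes, as 191 entries. They are shown for the 4 genes with the clearest increases after ligand that are described first below. Capitals mark a match to the motif CCGGAAGT, the core of ETS family sites, or, in Zfp811, to the CArG box of serum response factor; the window of Zfp281 held none of the motifs searched. The CArG box was added to the search after the Zfp811 window had been read.
Zfp811: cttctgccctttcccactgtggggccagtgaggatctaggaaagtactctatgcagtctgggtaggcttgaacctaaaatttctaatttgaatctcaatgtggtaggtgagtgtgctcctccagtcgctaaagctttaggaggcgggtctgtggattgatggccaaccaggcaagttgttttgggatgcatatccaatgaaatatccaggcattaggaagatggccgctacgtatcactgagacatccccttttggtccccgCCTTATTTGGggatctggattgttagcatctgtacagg
Zfp558: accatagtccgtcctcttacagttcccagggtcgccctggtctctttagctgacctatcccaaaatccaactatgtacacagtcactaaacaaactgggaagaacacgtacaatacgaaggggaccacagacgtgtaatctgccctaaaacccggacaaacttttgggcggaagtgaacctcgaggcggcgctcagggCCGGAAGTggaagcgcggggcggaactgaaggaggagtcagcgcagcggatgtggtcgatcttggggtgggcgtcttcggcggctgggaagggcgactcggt
Zfp263: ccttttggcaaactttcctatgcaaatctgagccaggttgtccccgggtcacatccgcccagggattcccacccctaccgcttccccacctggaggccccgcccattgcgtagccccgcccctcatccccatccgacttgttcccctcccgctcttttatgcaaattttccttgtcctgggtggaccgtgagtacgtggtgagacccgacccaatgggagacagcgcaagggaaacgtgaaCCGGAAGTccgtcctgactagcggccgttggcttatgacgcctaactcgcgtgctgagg
Zfp281: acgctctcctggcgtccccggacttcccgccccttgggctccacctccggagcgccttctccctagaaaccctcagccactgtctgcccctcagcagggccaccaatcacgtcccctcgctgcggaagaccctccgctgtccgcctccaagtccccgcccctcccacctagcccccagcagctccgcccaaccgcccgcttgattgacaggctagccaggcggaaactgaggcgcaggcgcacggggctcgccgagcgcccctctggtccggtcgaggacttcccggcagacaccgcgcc
The windows lie at chr17:32809882-32810181, minus strand for Zfp811, chr9:18473596-18473895, minus strand for the first of the Zfp558 entries, chr16:3743849-3744148, plus strand for Zfp263 and chr1:136624651-136624950, plus strand for Zfp281.

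The search covered both strands. CCGGAAGT occurred in 12% of the 191 Zfp entries and in 3.89% of all 32817 promoter entries. TGACGT, the core site of CREB and ATF factors, occurred in 16.8% of the Zfp entries and 7.51% of all entries. The kB motif occurred in 9.42% of the Zfp entries and 8.46% of all entries. TGANTCA, the AP-1 site, was in 4.19% against 7.81%, and the CArG box in 1.57% against 1.63%. Clustered copies share promoter sequence, so these shares are descriptions of letters in windows.

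Libraries held 20.03 to 45.9 M counts (median 29.9 M). In 9 of 9 conditions each KO library had less N4bp1 than any WT library, with log2 differences of -1.70 to -0.78. The library KO Pam3 8 h replicate 3 stood apart, with a count in 12263 genes against 16097 to 18039 in the 53 others, and Zfp395, Zfp764 and Zfp595 were at 0 in it; results at Pam3 8 h in KO are given with and without it where they rest on it. The summed level of 8 macrophage markers was 17713 to 26614 CPM in KO and 19705 to 29711 CPM in WT libraries. The summed level of 8 plasma and B cell markers was 39.7 to 121 CPM in KO and 4.32 to 32.4 CPM in WT libraries, with none of the 8 absent. Y-linked genes had at most 1.73 CPM in KO libraries, whereas each WT condition held 1 library with 163 to 208 CPM, 1 with 58.0 to 78.4 and 1 with 0.386 to 1.38. The high, middle and low WT libraries were replicates 1, 2 and 3 in untreated cells and at each time of R837, and stood in another order with Pam3. A level between those of the other WT libraries puts in doubt that each WT library came from a single mouse, as the labels have it, and the recurring levels put in doubt that WT libraries of different conditions are independent; n = 3 is to be read with that limit. Y-linked levels and B lineage RNA moved with genotype, and their part in the genotype differences below was not tested.

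Levels per length are given as the RPKM values the authors deposited, averaged over the 54 libraries. The median Zfp gene stood at 2.89 RPKM, against 5.5 RPKM for other tested protein-coding genes, and 137 of 189 lay under that second value. The highest were Zfp263 at 67.9, Zfp207 at 48.4, Zfp91 at 25.8, Zfp710 at 23.8 and Zfp281 at 23.2 RPKM. Zfp207 (BuGZ) is a spindle assembly factor, Zfp91 is known in human cells as a ubiquitin ligase, and Zfp281 is a GC-box binding regulator of pluripotency genes in mouse embryonic stem cells. The lowest were Zfp846 at 0.243, Zfp462 at 0.369, Zfp316 at 0.546, Zfp738 at 0.587 and Zfp329 at 0.606 RPKM.

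After either ligand more of the 189 Zfp genes fell than rose in WT cells, at each of the 8 times tested. All p-values of single genes below come from edgeR's quasi-likelihood test fitted to all 54 libraries, adjusted over 14970 genes, and a gene is called at an adjusted p below 0.05. At 2 h of Pam3, 120 of 189 fell and 19 rose, whereas 18.9% of all tested genes fell and 22.1% rose. At 4 h of Pam3, 77 fell and 26 rose (all genes, 23.7% and 25.3%). At 6 h of Pam3, 71 fell and 21 rose (all genes, 26.7% and 26.8%). By 8 h of Pam3, 73 fell and 24 rose (all genes, 25.9% and 26.3%).

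R837 gave the same balance of calls. At 2 h 105 Zfp genes fell and 17 rose (all genes, 19.7% and 22.2%). At 4 h, 124 fell and 17 rose (all genes, 27.4% and 26.4%). At 6 h, 109 fell and 22 rose (all genes, 30.3% and 28.9%). At 8 h, 95 fell and 29 rose (all genes, 29.1% and 28.3%). The median log2 change of the Zfp genes was -0.60, -0.26, -0.24 and -0.27 at 2, 4, 6 and 8 h of Pam3, and -0.48, -0.63, -0.56 and -0.38 at the same times of R837. Over all tested genes the median stayed between -0.06 and 0.03. Among the 35 most abundant Zfp genes, those with at least 54000 counts over all libraries, decreases exceeded increases by at most 2 genes at any time. Of these, Pam3 lowered 11 and raised 10 by 2 h, lowered 6 and raised 12 by 4 h, lowered 7 and raised 9 by 6 h, and lowered 11 and raised 9 by 8 h. R837 lowered 11 and raised 9 by 2 h, lowered 10 and raised 8 by 4 h, lowered 10 and raised 10 by 6 h, and lowered 9 and raised 10 by 8 h. The summed count includes treated libraries, so a gene that rose could enter the 35 and one that fell could drop out. The balance among the 35 therefore cannot show whether the excess of decreases depends on abundance. The 8 comparisons share their untreated libraries. Scaling moved with treatment: TMM factors were 0.830 to 1.07 in treated and 1.24 to 1.28 in untreated libraries. With RLE factors in their place, the median shift of the Zfp genes' log2 changes was at most 0.046 in size in any comparison. RNA per cell was not measured, so fewer cells of a type and less RNA per cell cannot be told apart.

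**Figure D1:**
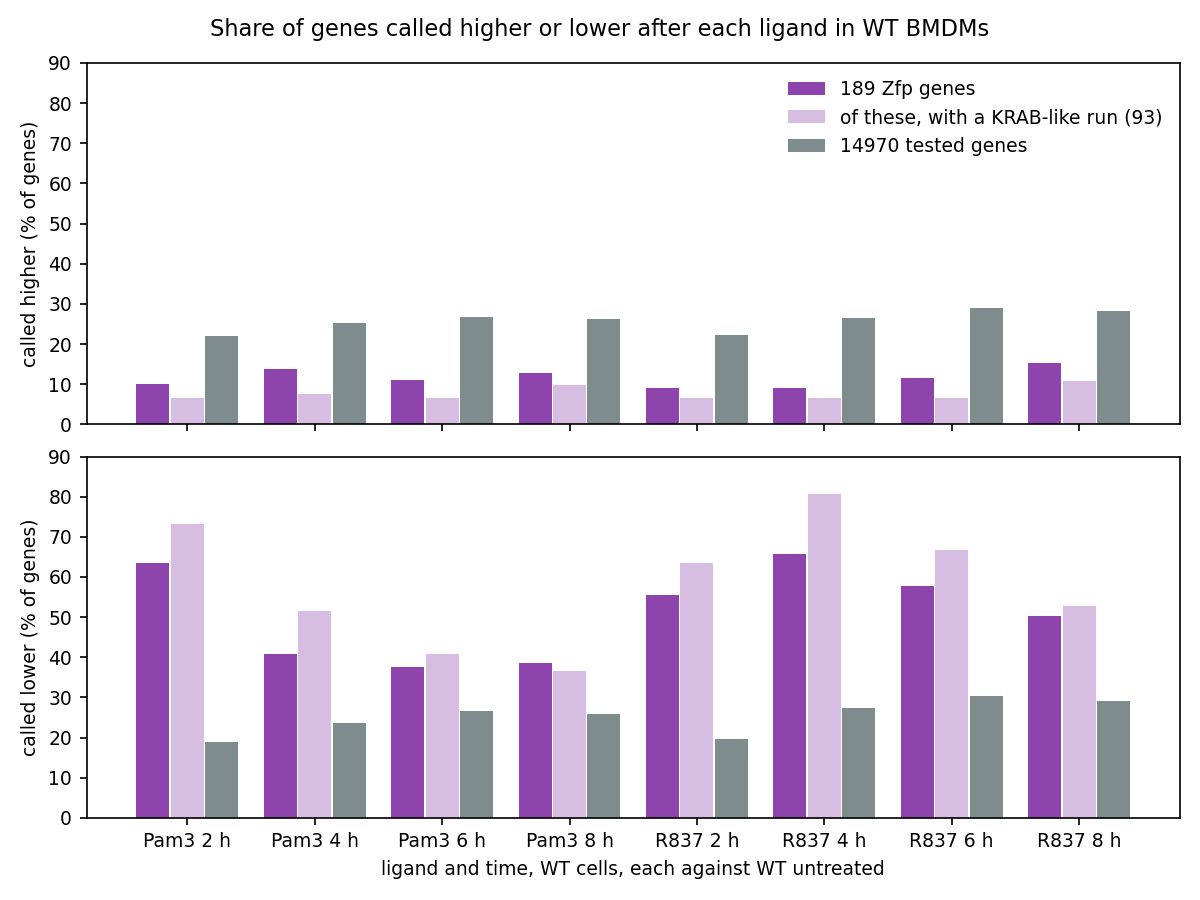
Share of genes called higher (top) or lower (bottom) in WT cells after each ligand and time, each against WT untreated, for the 189 Zfp genes, the 93 of them with a KRAB-like stretch and all 14970 tested genes; the y axes are percent of genes. The Zfp bars stand below the all-gene bars in the top panel and above them in the bottom panel at all 8 times.

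The class with a KRAB-like stretch had the lowest median of the 3 classes at 2 and 4 h of Pam3 and at all 4 times of R837. At 6 and 8 h of Pam3 its medians of -0.29 and -0.27 lay above those of the 31 genes with fewer than 5 fingers, -0.34 and -0.28. Of these 93 genes, 68 fell and 6 rose at 2 h of Pam3 (median log2 change -0.82), and 34 fell and 9 rose at 8 h (median -0.27). With R837 75 fell and 6 rose at 4 h (median -0.97), and 49 fell and 10 rose at 8 h (median -0.43). Over all tested genes, 18.9% fell and 22.1% rose at 2 h of Pam3, and 25.9% and 26.3% at 8 h. At 4 h of R837 those shares were 27.4% and 26.4%, and at 8 h 29.1% and 28.3%. In the 65 genes with at least 5 fingers and no KRAB-like stretch the median was -0.37 at 2 h of Pam3 and -0.40 at 4 h of R837. In the 31 genes with fewer fingers it was -0.40 and -0.25. Of the 9 genes with a SCAN-like stretch, 8 fell and 1, Zfp263, rose at 2 h of Pam3.

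Summed over its 93 genes, the KRAB-like class stood at 793, 855.4 and 796.5 TMM-scaled CPM in the WT libraries at 2 h of Pam3, against 1259, 1248 and 1254 CPM in untreated WT. At 4 h of R837 the WT sums were 780, 708 and 709.2 CPM. Every treated WT library lay below every untreated one. The sum over the 65 genes with at least 5 fingers was 2396, 2319 and 2352 CPM in WT at 4 h of R837, against 2248, 2229 and 2230 CPM in untreated WT, and there the treated libraries were the higher ones. Zfp263 was placed in that class by the sequence search, which can miss a KRAB domain that departs from the consensus. Of the 65 genes 8 rose and 34 fell at that time (all genes, 26.4% and 27.4%). All 189 genes together took 0.372 to 0.465% of counts in treated and 0.572 to 0.627% in untreated libraries before scaling.

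**Figure D2:**
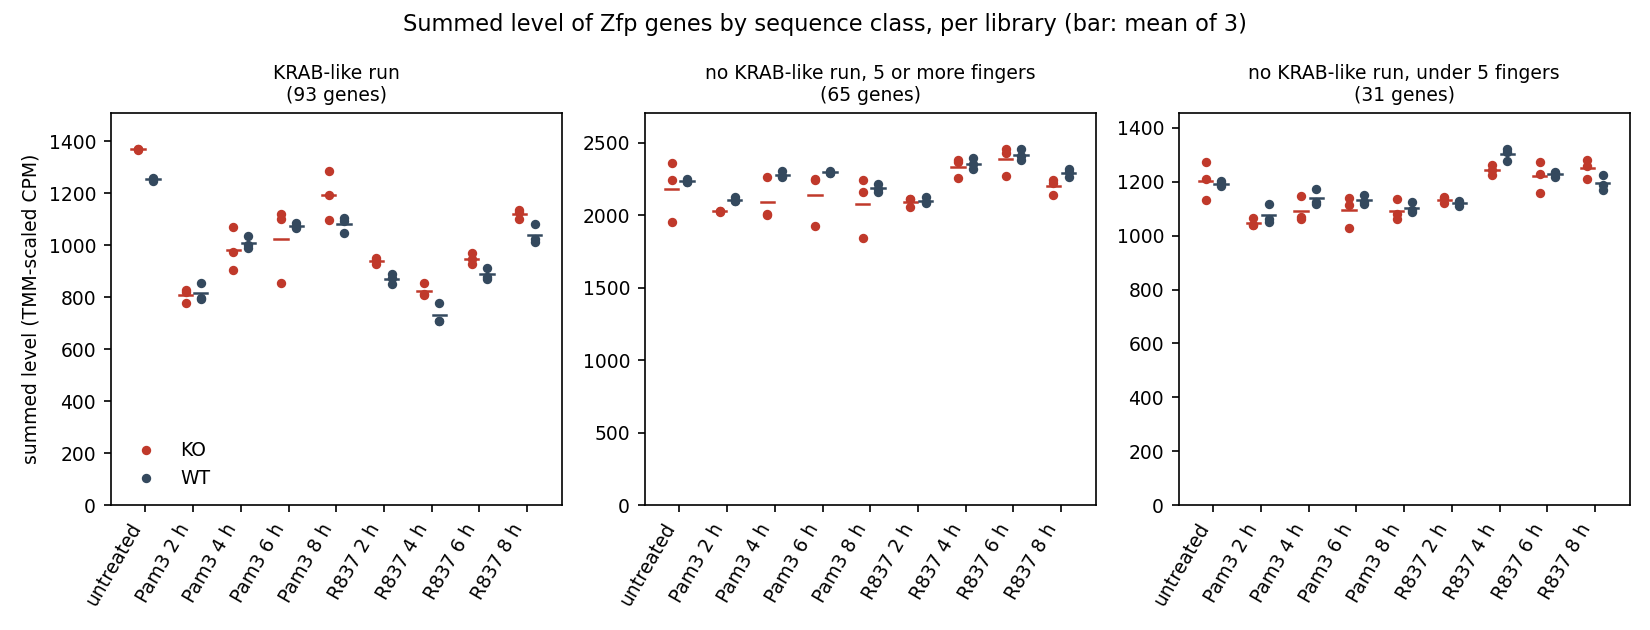
Summed level of the Zfp genes of each sequence class in every library (points, KO left of WT; bar, mean of 3), in TMM-scaled CPM, by condition. The KRAB-like class is lowest in WT at R837 4 h, at 708 to 780 CPM, and highest in untreated cells.

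At 2 h of Pam3 and at 4 h of R837 decreases outnumbered increases in each of the 7 gene clusters. Over all tested genes the share that fell was 18.9% after 2 h of Pam3, 25.9% after 8 h of Pam3, 27.4% after 4 h of R837 and 29.1% after 8 h of R837. In the cluster of 17 at chr17:21008903-23564238, 15 fell and 0 rose at 2 h of Pam3 (median log2 change -0.82), and 3 fell and 1, Zfp948, rose at 8 h (median -0.01). With R837 12 of these 17 fell at 4 h and 4 at 8 h, so that at 8 h of either ligand the share that fell was below that over all genes. In the 8 genes at chr13:67312998-67729173, all KRAB-like, 7 fell at 2 h of Pam3 (median -0.97) and 7 at 4 h of R837 (median -1.12). The 6 genes at chr6:47877204-48623227 fell, all 6 of them, at 4 and at 8 h of R837, with medians of -0.88 and -0.87. In the 9 genes at chr7:127233061-127885996, of which 3 are KRAB-like, 8 fell at 4 h and 7 at 8 h of R837. Genes of a cluster can share reads through near-identical exons, so their values are not independent.

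Related families were counted in the same way, beside 18.9% of all genes that fell and 22.1% that rose at 2 h of Pam3. Of 14 Zscan and Zkscan genes, which encode SCAN zinc finger proteins, 11 fell and 1 rose at 2 h of Pam3 (median -1.22). Of 30 Zbtb genes, which pair zinc fingers with a BTB domain, 12 fell and 7 rose (median -0.12). Among 11 Klf genes 2 fell and 5 rose, and among 11 Zc3h genes, which encode CCCH fingers that bind RNA, 4 fell and 4 rose. Of 16 genes of the KRAB corepressor machinery, among them Trim28, Setdb1 and the HP1 genes Cbx1 and Cbx5, 8 fell and 5 rose at 2 h of Pam3, and 8 fell and 6 rose at 4 h of R837 (all genes, 27.4% and 26.4%).

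Zfp811 showed the largest increase of all 189 genes at 8 h of either ligand. It lies at chr17:32795676-32809931 and encodes a KRAB-like protein with 13 fingers. At 8 h of Pam3 it stood at 10.2, 10.5 and 7.93 CPM in WT libraries, against 0.0866, 0 and 0.0261 CPM in untreated WT libraries. At 8 h of R837 it stood at 9.27, 9.57 and 7.08 CPM in WT. Every treated library lay above every untreated one at these times. The pooled counts were 840 at 8 h of Pam3 and 4 untreated, a ratio of 245 per scaled library (exact 95% interval 95.2 to 900, which covers counting error only). After 2 h of Pam3 the ratio was 8.48 (2.94 to 33.4), so most of the rise came later. Fitted log2 changes of a gene so near 0 depend on the prior count; edgeR's adjusted p was 7.42e-23 at 8 h of Pam3 and 1.44e-22 at 8 h of R837.

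The genes beside Zfp811 on chromosome 17 behaved differently. Zfp871 at chr17:32765496-32788287 was not called at 2 or 8 h of Pam3 (log2 change 0.50 ± 0.33, edgeR adjusted p = 0.211 at 8 h). Zfp799 at chr17:32815449-32830261 fell at 2 h of Pam3 (log2 change -1.60 ± 0.24, edgeR adjusted p = 2.48e-07) and was not called at 8 h (log2 change -0.16 ± 0.22, edgeR adjusted p = 0.574). Zfp870 at chr17:32879219-32891642 fell at 4 h of R837 (log2 change -1.72 ± 0.26, edgeR adjusted p = 2.4e-07). Zfp811 was the only one of the 8 genes of its cluster that rose at 2 or 8 h of Pam3 or at 4 or 8 h of R837.

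Zfp558, a KRAB-like gene at chr9:18455575-18478268, was the next largest increase. Its level at rest was also low, so the same limit holds for its rank. Zfp558 stood at 9.33, 7.9 and 8.09 CPM in WT at 8 h of Pam3, against 0.894, 0.431 and 0.418 CPM in untreated WT (log2 change 3.85 ± 0.30, edgeR adjusted p = 4.62e-15). At 8 h of R837 its WT libraries had 8.21, 11.4 and 15.1 CPM (log2 change 4.31 ± 0.30, edgeR adjusted p = 1.01e-16). Its treated and untreated libraries did not overlap, and its level was higher at each later time measured, as a mean of 3, with either ligand.

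Zfp263 was abundant and rose early. It encodes a SCAN zinc finger protein with 9 fingers and lies at chr16:3744093-3750790. At 2 h of Pam3 it stood at 329, 308 and 371 CPM in WT, against 63.3, 61.8 and 62 CPM in untreated WT (log2 change 2.43 ± 0.12, edgeR adjusted p = 1.43e-21), and at 2 h of R837 at 315, 307 and 372 CPM. The treated libraries were all several times the untreated ones. At 8 h it was still above untreated, at 208 ± 23.1 CPM with Pam3 and 259 ± 64.3 CPM with R837 (SD, n = 3 each).

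Zfp281, at chr1:136624901-136630053, had its highest mean in WT at 4 h of either ligand. With R837 it stood at 281, 295 and 279 CPM in WT, against 33.4, 38.8 and 38.1 CPM in untreated WT (log2 change 2.95 ± 0.14, edgeR adjusted p = 1.82e-22). With Pam3 it reached 138, 137 and 145 CPM at 4 h (log2 change 1.93 ± 0.14, edgeR adjusted p = 2.53e-16) and was lower at 8 h than at 2 h (log2 change -0.53 ± 0.13, edgeR adjusted p = 0.000998). Zfp800 stood at 152, 182 and 179 CPM at 4 h of R837, against 18.5, 19.2 and 17.7 CPM untreated (log2 change 3.21 ± 0.19, edgeR adjusted p = 2.08e-18). These 4-h groups did not overlap with untreated cells.

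Further increases were smaller. Zfp719 stood at 29.1 ± 5.17 CPM at 8 h of R837, against 5.82 ± 1.51 CPM in untreated WT (log2 change 2.32 ± 0.17, edgeR adjusted p = 2.59e-16). Zfp821 stood at 39 ± 1.51 against 8.54 ± 0.171 CPM in the same comparison (log2 change 2.19 ± 0.14, edgeR adjusted p = 3.72e-18), and Zfp948, in the large chromosome 17 cluster, at 21 ± 2.64 CPM at 6 h of Pam3 against 6.07 ± 0.782 CPM untreated (log2 change 1.79 ± 0.17, edgeR adjusted p = 1.4e-12). Zfp131, a BTB zinc finger gene, rose at 2 h of Pam3 (log2 change 1.59 ± 0.14, edgeR adjusted p = 1.02e-13). Zfp703, which encodes a transcriptional corepressor amplified in human breast cancer, rose at 2 h of Pam3 (log2 change 1.46 ± 0.12, edgeR adjusted p = 1.26e-13) and was lower at 8 h than at 2 h (log2 change -1.50 ± 0.12, edgeR adjusted p = 6.15e-14).

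**Figure D3:**
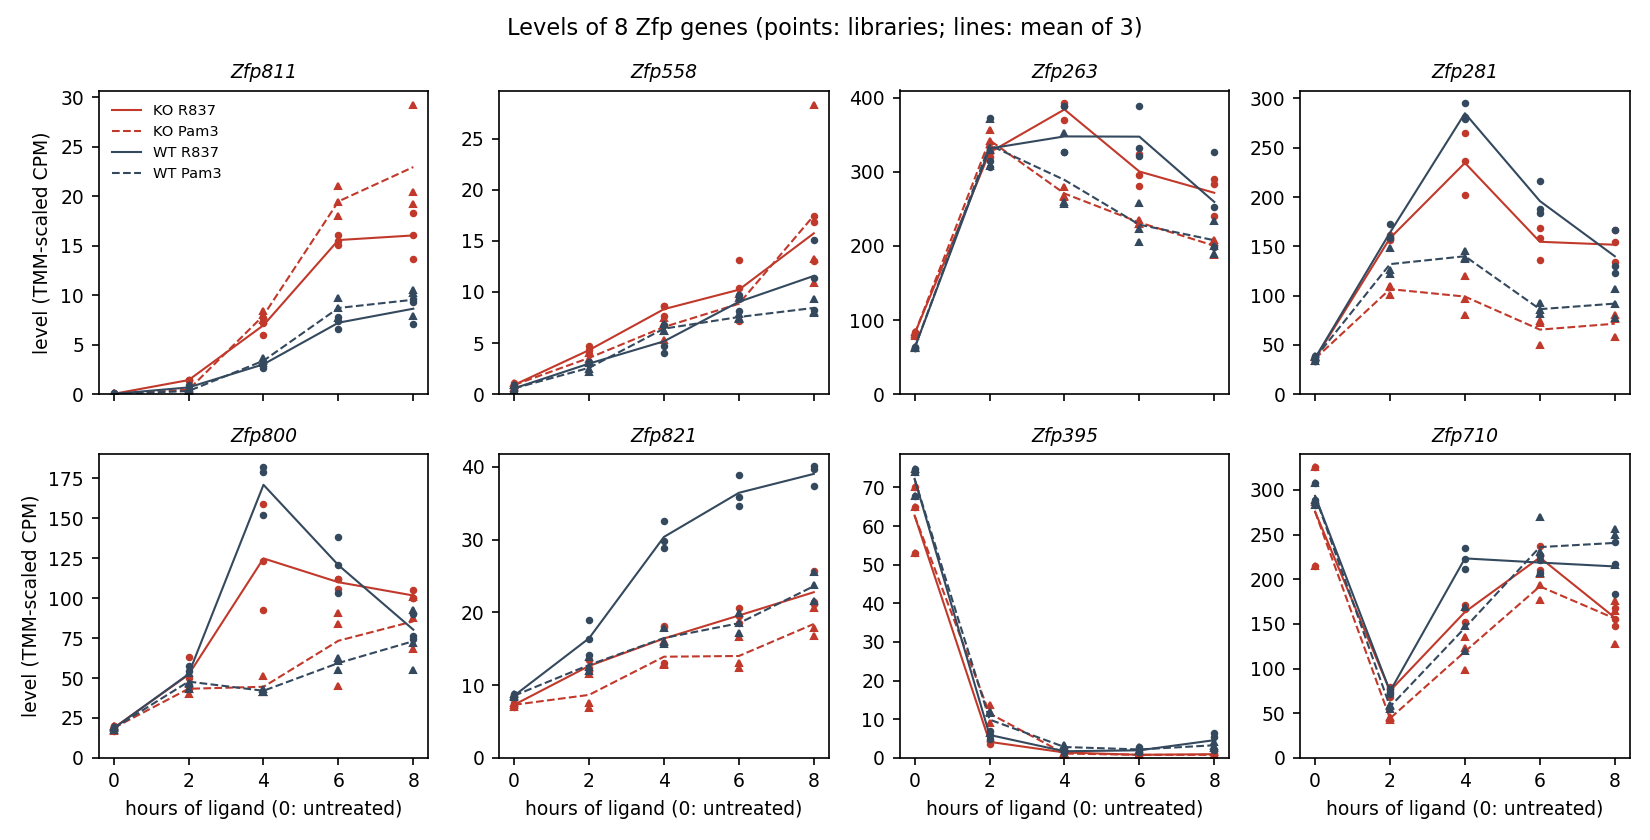
Levels of 8 Zfp genes in TMM-scaled CPM against hours of ligand, with untreated cells at 0 h (points, libraries; lines, mean of 3; circles and solid lines, R837; triangles and dashed lines, Pam3; red, KO; blue, WT). Zfp811 and Zfp558 climb to 8 h, Zfp263 in WT is highest at 2 h with Pam3 and level between 2 and 6 h with R837, Zfp281 in WT is highest at 4 h, Zfp395 drops to near 0, and Zfp710 dips at 2 h and recovers.

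The deepest fall was in Zfp395, whose human counterpart ZNF395 is known as a hypoxia-induced DNA-binding protein. It stood at 11.8, 6.33 and 11.6 CPM in WT at 2 h of Pam3, against 74.9, 67.8 and 73.9 CPM in untreated WT (log2 change -2.86 ± 0.38, edgeR adjusted p = 4.3e-08). By 4 h of R837 it was at 1.31, 1.71 and 2.1 CPM (log2 change -5.40 ± 0.44, edgeR adjusted p = 7.15e-14). No treated library came near an untreated one. Zfp704 fell later: it stood at 2.2, 1.96 and 1.56 CPM at 8 h of R837, against 44.4, 46.1 and 37.2 CPM untreated (log2 change -4.48 ± 0.38, edgeR adjusted p = 1.35e-13), and between 2 and 8 h of R837 its log2 change was -3.39 (edgeR adjusted p = 3.49e-10).

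Zfp710, one of the most abundant Zfp genes, fell and came back. It stood at 58.5, 58.8 and 54.6 CPM at 2 h of Pam3, against 308, 289 and 283 CPM in untreated WT (log2 change -2.36 ± 0.13, edgeR adjusted p = 2.32e-20). At 8 h of Pam3 its WT libraries had 216, 256 and 250 CPM, above all 3 libraries at 2 h (log2 change 2.07 ± 0.13, edgeR adjusted p = 3.08e-18). Zfp324 followed a like course, at 1.84 ± 0.368 CPM at 2 h and 6.15 ± 1.04 CPM at 8 h of Pam3, against 10.8 ± 0.562 CPM untreated (SD, n = 3 each).

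Other large decreases were spread over the classes. Zfp316 (log2 change -2.75 ± 0.46, edgeR adjusted p = 4e-06) and Zfp788 (log2 change -2.21 ± 0.21, edgeR adjusted p = 3.2e-12) fell at 2 h of Pam3. Zfp157 (log2 change -2.90 ± 0.23, edgeR adjusted p = 3.08e-15) and Zfp775 (log2 change -2.67 ± 0.29, edgeR adjusted p = 8.37e-11) fell at 4 h of R837. Zfp61 fell at 6 h of R837 (log2 change -2.79 ± 0.28, edgeR adjusted p = 6.09e-12), and Zfp41 at the same time (log2 change -2.53 ± 0.32, edgeR adjusted p = 3.83e-09). Late decreases at 8 h of Pam3 included Zfp219 (log2 change -1.93 ± 0.19, edgeR adjusted p = 2.8e-12), Zfp652 (log2 change -1.61 ± 0.19, edgeR adjusted p = 1.84e-09) and Zfp953 (log2 change -1.41 ± 0.21, edgeR adjusted p = 1.37e-07). Exons of Zfp652 overlap other genes over 11.77% of their length on the same strand and 19.26% on the opposite strand, so its value is uncertain. Zfp810 was lower at 4 h of Pam3 (log2 change -2.03 ± 0.24, edgeR adjusted p = 7.96e-10).

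The genes chosen for a known role showed mixed values. Zfp451, whose human counterpart is a SUMO ligase, rose at 2 h of Pam3 (log2 change 1.16 ± 0.094, edgeR adjusted p = 2.13e-14) and was not called at 4 h of R837 (log2 change -0.12 ± 0.094, edgeR adjusted p = 0.301). Zfp207 fell at 2 h of Pam3 (log2 change -0.20 ± 0.070, edgeR adjusted p = 0.0167) and rose at 4 h of R837 (log2 change 0.59 ± 0.070, edgeR adjusted p = 6.99e-10). Zfp622, whose yeast counterpart acts in ribosome assembly, rose at 2 h of Pam3 (log2 change 0.39 ± 0.12, edgeR adjusted p = 0.00999) and fell at 4 h of R837 (log2 change -0.48 ± 0.12, edgeR adjusted p = 0.00103). Zfp346 (JAZ), a binder of double-stranded RNA, fell at 4 h of R837 (log2 change -1.37 ± 0.13, edgeR adjusted p = 7.23e-13), as did Zfp746 (PARIS), a repressor of PGC-1α and parkin substrate (log2 change -0.57 ± 0.11, edgeR adjusted p = 2.52e-05). Zfp809, a KRAB protein that binds the primer binding site of murine leukaemia virus, fell at 4 h of R837 (log2 change -1.02 ± 0.17, edgeR adjusted p = 1.92e-06), and Zfp318, needed for IgD expression in mouse B cells, fell there too (log2 change -0.61 ± 0.17, edgeR adjusted p = 0.00143). Zfp598, which in human cells ubiquitinates collided ribosomes (log2 change 0.02 ± 0.14, edgeR adjusted p = 0.917), Zfp91 (log2 change -0.07 ± 0.091, edgeR adjusted p = 0.546), and Zfp326, part of a complex that links transcription to splicing in human cells (log2 change -0.04 ± 0.11, edgeR adjusted p = 0.8), were not called at that time. At 2 h of Pam3 Zfp346, Zfp746, Zfp809 and Zfp318 also fell, with log2 changes of -0.79, -0.44, -0.65 and -0.40 and edgeR adjusted p of at most 0.0448. Zfp326 rose there (log2 change 0.28 ± 0.11, edgeR adjusted p = 0.0397), and Zfp598 and Zfp91 were not called. Counting each library left out as an alternative, the Zfp318 call at 2 h of Pam3 was lost in 7 alternatives and that of Zfp326 in 6. Of the others chosen for a known role, Zfp574 (log2 change -0.62 ± 0.15, edgeR adjusted p = 0.00037) and Zfp593 (log2 change -0.58 ± 0.16, edgeR adjusted p = 0.00193) fell at 4 h of R837 and were not called at 2 h of Pam3. Zfp106, Zfp335, Zfp384 and Zfp830 were not called at 2 h of Pam3 or at 4 h of R837, with log2 changes between -0.31 for Zfp106 and 0.17 for Zfp830 at the first and between -0.14 for Zfp384 and 0.15 for Zfp335 at the second. Exons of Zfp106, Zfp335 and Zfp593 overlap other genes over more than 20% of their length, and without a known strand setting such values are uncertain.

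Part of the early fall was gone by 8 h, as a comparison of late with early WT libraries added after the first results showed. With Pam3 85 of 189 Zfp genes were higher at 8 h than at 2 h and 24 were lower (all genes, 23.6% and 24.4%), with a median log2 change of 0.32 against -0.01 for all genes. With R837 61 were higher at 8 h and 31 lower (all genes, 22.3% and 23.2%), with a median of 0.12. Among the 93 KRAB-like genes 51 were higher and 7 lower at 8 h of Pam3 (median 0.49). Zfp292 was higher at 8 h with Pam3 (log2 change 1.92 ± 0.23, edgeR adjusted p = 3.85e-09) and with R837 (log2 change 1.91 ± 0.23, edgeR adjusted p = 4.07e-09). Zfp516, which encodes a regulator of brown fat genes in mice, was lower at 8 h with Pam3 (log2 change -2.01 ± 0.15, edgeR adjusted p = 1.12e-15) and with R837 (log2 change -1.71 ± 0.15, edgeR adjusted p = 1.61e-13).

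The ligands differed most at 4 h, when R837 left Zfp genes lower than Pam3 did. In WT cells at 2 h, 11 Zfp genes were higher and 7 lower with R837 than with Pam3 (all genes, 2.56% and 2.22%). At 4 h, 12 were higher and 90 lower (all genes, 10.4% and 11.5%), with a median log2 difference of -0.42 against -0.03 for all genes. At 6 h, 12 were higher and 56 lower (all genes, 12.2% and 10.5%), and at 8 h 6 were higher and 9 lower (all genes, 7.16% and 4.37%). Of the 93 KRAB-like genes 56 were lower and 2 higher at 4 h. Single libraries decided some of these counts. At 2 h the higher count was 0 without Pam3 replicate 1 or Pam3 replicate 3, 1 without R837 replicate 1, 6 without R837 replicate 2 and 4 without R837 replicate 3, and the lower count was 4 without R837 replicate 1. At 6 h the higher count was 7 without Pam3 replicate 2, Pam3 replicate 3 or R837 replicate 3, and the lower count was 37 without R837 replicate 2 or R837 replicate 3. At 8 h the higher count was 3 without R837 replicate 2 or R837 replicate 3, and the lower count was 4 without Pam3 replicate 3 or R837 replicate 2 and 2 without R837 replicate 3.

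Zfp800 was the gene most above Pam3 with R837 at 4 h. It stood at 152, 182 and 179 CPM with R837 and 43.3, 41.5 and 41.2 CPM with Pam3 in WT (log2 change 2.02 ± 0.18, edgeR adjusted p = 5.99e-12), with no overlap. Zfp281 stood at 184, 188 and 216 CPM with R837 and 92.2, 85.2 and 81.6 CPM with Pam3 at 6 h (log2 change 1.18 ± 0.13, edgeR adjusted p = 1.77e-09), and Zfp821 at 34.6, 35.8 and 38.9 and 19.9, 17.1 and 18.5 CPM (log2 change 0.98 ± 0.13, edgeR adjusted p = 1.66e-07). In the other direction Zfp775 stood at 0.685, 1.16 and 1.71 CPM with R837 and 4.17, 6.27 and 5 CPM with Pam3 at 4 h (log2 change -2.11 ± 0.29, edgeR adjusted p = 1.59e-07). Zfp157 (log2 change -1.59 ± 0.23, edgeR adjusted p = 2.26e-07), Zfp282 (log2 change -1.44 ± 0.14, edgeR adjusted p = 1.24e-11), Zfp553 (log2 change -1.35 ± 0.22, edgeR adjusted p = 4.3e-06) and Zfp60 (log2 change -1.35 ± 0.23, edgeR adjusted p = 1.09e-05) were also lower with R837 at 4 h, as was Zfp369 at 6 h (log2 change -1.30 ± 0.25, edgeR adjusted p = 9.91e-05). Zfp703 was lower with R837 at 2 h (log2 change -0.58 ± 0.12, edgeR adjusted p = 0.00129), and Zfp367 as well (log2 change -0.75 ± 0.15, edgeR adjusted p = 0.000859).

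In untreated cells no Zfp gene was called different between KO and WT. Of the 189, 0 were called higher and 0 lower by edgeR and 0 by DESeq2. Of all tested genes, edgeR called 0.514% higher and 0.367% lower. Under 3 of the alternatives 1 Zfp gene, Zfp263, was called higher in KO. An unadjusted edgeR p below 0.05 was found for 16 of the 189. The share of all genes at that unadjusted limit is not given here, so the 16 cannot be read against it. The summed level of the 93 KRAB-like genes was 1366, 1372 and 1371 CPM in untreated KO and 1259, 1248 and 1254 CPM in untreated WT libraries. Those sums did not overlap, and the plasma and B cell markers given above were higher in the same KO libraries; their part in the result was not tested.

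With Pam3 the genotypes differed in few Zfp genes before 8 h. At 2 h 0 were higher and 1 lower in KO (all genes, 0.655% and 0.775%), at 4 h 1 and 1 (all genes, 3.33% and 3.09%), and at 6 h 2 and 1 (all genes, 3.9% and 4.1%). At 8 h 18 were higher and 14 lower, or 9.52% and 7.41% of the 189, against 11.4% and 12.4% of all genes. Fitted to the compared groups alone, KO against WT at 8 h of Pam3 gave 1 higher and 1 lower. With R837 3 were higher and 0 lower at 2 h (all genes, 1.47% and 1.22%), 15 and 8 at 4 h (all genes, 3.88% and 6.56%), 13 and 6 at 6 h (all genes, 6.76% and 9.7%), and 12 and 19 at 8 h (all genes, 7.17% and 8.74%). Read against all genes, the higher calls at R837 4 h (7.94% of the 189) lay farthest above the background and the lower calls at R837 6 h (3.17%) farthest below it. The 93 KRAB-like genes held 11 of the higher and 3 of the lower calls at Pam3 8 h, and 10 and 3 at R837 4 h.

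Many of these counts hung on single libraries. With Pam3 the higher count was 1 without KO replicate 1 at 2 h, 2 without WT replicate 1 at 4 h, 1 without WT replicate 2, WT replicate 3 or KO replicate 3 at 6 h and 9 without WT replicate 3 and 8 without KO replicate 3 at 8 h. The lower count was 0 without WT replicate 1, WT replicate 2, KO replicate 2 or KO replicate 3 and 2 without KO replicate 1 at 2 h, 0 without WT replicate 3, KO replicate 1 or KO replicate 2 and 7 without KO replicate 3 at 4 h, 0 without WT replicate 2, 9 without KO replicate 1 and 7 without KO replicate 2 at 6 h and 23 without KO replicate 1 at 8 h. With R837 the higher count was 1 without WT replicate 2, WT replicate 3, KO replicate 1 or KO replicate 2 and 0 without KO replicate 3 at 2 h, 7 without WT replicate 2, 9 without WT replicate 3 and 8 without KO replicate 2 at 4 h, 7 without KO replicate 1 at 6 h and 6 without WT replicate 1, 7 without WT replicate 2 or KO replicate 3 and 5 without KO replicate 1 at 8 h. The lower count was 5 without WT replicate 1 and 4 without KO replicate 2 at 4 h and 11 without WT replicate 1 and 12 without WT replicate 2, KO replicate 1 or KO replicate 2 at 8 h. At 4, 6 and 8 h of Pam3 the sum over all 189 genes spread more widely in KO libraries (SD 276, 387 and 321 CPM) than in WT libraries (SD 48.2, 28.7 and 34.9 CPM, n = 3 each), and at 2 h less widely (SD 36.4 CPM in KO and 63.2 CPM in WT). It was 4509, 4453 and 3812 CPM in KO and 4529, 4502 and 4471 CPM in WT at 6 h, and 4485, 4001 and 4608 CPM in KO and 4350, 4411 and 4351 CPM in WT at 8 h.

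Zfp811 was called different between genotypes in 7 of 9 conditions, more than any other of the 189 genes; Zfp821 followed with 5. It stood at 20.4, 19.2 and 29.2 CPM in KO and 10.2, 10.5 and 7.93 CPM in WT at 8 h of Pam3 (log2 change 1.27 ± 0.20, edgeR adjusted p = 4.76e-06), and the difference kept its call without KO replicate 3 (log2 change 1.04, edgeR adjusted p = 9.73e-05). At 6 h of R837 it stood at 15.1, 15.5 and 16.1 CPM in KO and 7.35, 6.55 and 7.77 CPM in WT (log2 change 1.10 ± 0.20, edgeR adjusted p = 4.66e-05). No KO library overlapped a WT library in either comparison. It was called higher in KO at 4, 6 and 8 h of Pam3 and at 2, 4, 6 and 8 h of R837, with log2 differences from 0.89 to 1.27, and not at 2 h of Pam3 (log2 change 0.50 ± 0.38, edgeR adjusted p = 0.675). Over the time course the change with ligand was not called different between genotypes (edgeR adjusted p = 0.722 for Pam3 and 0.993 for R837), and in untreated cells the pooled count was 4 in each genotype. That test takes the change from untreated cells, and counts so low leave it little power. The lack of a call therefore does not show that the response was equal.

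Its neighbour Zfp799 was higher in KO at 4 h of R837, at 4.5, 5.84 and 5.05 CPM in KO and 3.33, 1.86 and 1.92 CPM in WT (log2 change 1.11 ± 0.23, edgeR adjusted p = 0.000798). Zfp451 was higher in KO at 6 h of R837, at 43.7, 38.5 and 40.6 CPM in KO and 28, 24.6 and 26.5 CPM in WT (log2 change 0.64 ± 0.094, edgeR adjusted p = 1.42e-06), at 8 h of R837 (log2 change 0.48 ± 0.094, edgeR adjusted p = 0.00015) and at 8 h of Pam3 (log2 change 0.51 ± 0.093, edgeR adjusted p = 5.57e-05). The groups did not overlap at 6 h of R837. Zfp84 was higher in KO at 4 h of R837 (log2 change 0.65 ± 0.12, edgeR adjusted p = 5.74e-05) and Zfp809 at 6 h (log2 change 0.65 ± 0.17, edgeR adjusted p = 0.00548). Zfp593, with overlapping exons, was higher in KO at 8 h of Pam3 (log2 change 0.65 ± 0.15, edgeR adjusted p = 0.0015).

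Some increases in KO depended on 1 library. Zfp558 stood at 13.2, 10.9 and 28.3 CPM in KO and 9.33, 7.9 and 8.09 CPM in WT at 8 h of Pam3 (log2 change 1.05 ± 0.24, edgeR adjusted p = 0.00109), and without KO replicate 3 it was not called (log2 change 0.50, edgeR adjusted p = 0.113). Zfp568, a KRAB gene that silences a placental Igf2 transcript in mouse embryos, was higher in KO at 8 h of Pam3 (log2 change 0.70 ± 0.20, edgeR adjusted p = 0.00941) but not without that library (log2 change 0.37, edgeR adjusted p = 0.236). At 6 h of R837 Zfp568 was higher in KO (log2 change 0.75 ± 0.20, edgeR adjusted p = 0.00651), a call lost without KO R837 6 h replicate 1 (log2 change 0.64, edgeR adjusted p = 0.0574). Zfp131 was higher in KO at 8 h of R837 (log2 change 0.51 ± 0.13, edgeR adjusted p = 0.00404), and lost its call without WT R837 8 h replicate 1 (log2 change 0.42, edgeR adjusted p = 0.0522).

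Zfp821 and Zfp90 were lower in KO. Zfp821 stood at 18.6, 20.6 and 19.5 CPM in KO and 34.6, 35.8 and 38.9 CPM in WT at 6 h of R837 (log2 change -0.90 ± 0.13, edgeR adjusted p = 1.7e-06), with no overlap, and was also lower at 4 h (log2 change -0.89 ± 0.13, edgeR adjusted p = 4.33e-06) and 8 h (log2 change -0.78 ± 0.13, edgeR adjusted p = 2.78e-05). Zfp90, whose exons overlap another gene, stood at 13.2, 12.5 and 8.11 CPM in KO and 19.7, 23 and 18.1 CPM in WT at 8 h of Pam3 (log2 change -0.84 ± 0.16, edgeR adjusted p = 9.77e-05; without KO replicate 3, log2 change -0.67, edgeR adjusted p = 0.00277). It was lower in KO at 8 h of R837 as well (log2 change -0.70 ± 0.16, edgeR adjusted p = 0.00112). Zfp324 was lower in KO at 4 h of R837 (log2 change -1.14 ± 0.22, edgeR adjusted p = 0.000254), Zfp319 at 8 h of Pam3 (log2 change -0.73 ± 0.14, edgeR adjusted p = 0.000141), and Zfp710 at 8 h of Pam3 (log2 change -0.63 ± 0.12, edgeR adjusted p = 0.000157). Zfp467, which promotes fat cell fate in mouse marrow stroma, was lower in KO at 8 h of Pam3 (log2 change -0.73 ± 0.13, edgeR adjusted p = 4.25e-05) and of R837 (log2 change -0.63 ± 0.13, edgeR adjusted p = 0.000383), and Zfp219 at 8 h of R837 (log2 change -0.84 ± 0.20, edgeR adjusted p = 0.00179). Fitted to the compared groups alone, the differences of Zfp319, Zfp467, Zfp90, Zfp558, Zfp568 and Zfp593 at 8 h of Pam3 did not pass the threshold.

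**Figure D4:**
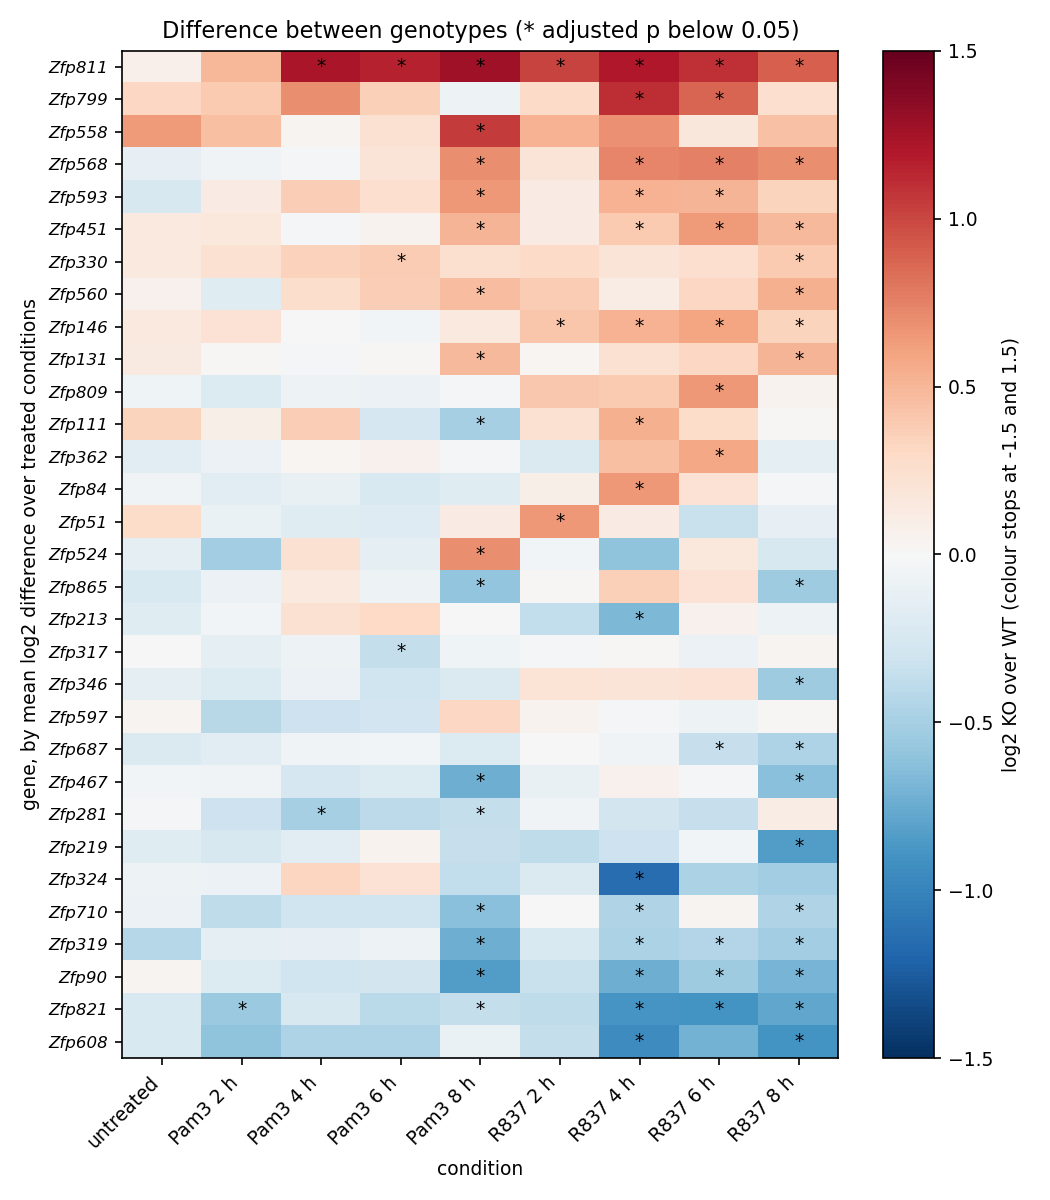
Log2 difference of KO over WT for the 31 Zfp genes named in a genotype comparison (rows, ordered by their mean over treated conditions) in each of the 9 conditions (columns); the colour scale stops at -1.5 and 1.5, and an asterisk marks an edgeR adjusted p below 0.05. Zfp811 is marked in 7 of the 8 treated conditions, and the untreated column has no asterisk.

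Whether the response itself differed between genotypes was tested with an F-test over the 4 times of each ligand. Of the 189 genes 3 passed for Pam3, against 4.64% of all tested genes, and 7 for R837, against 7.47%. For Pam3 they were Zfp111 (edgeR adjusted p = 0.00897), Zfp597 (0.0326) and Zfp451 (0.0449). Without KO Pam3 8 h replicate 3, Zfp597 (edgeR adjusted p = 0.151) and Zfp451 (0.183) did not pass for Pam3. For R837 the genes that passed were led by Zfp346 (edgeR adjusted p = 0.00705), Zfp84 (0.0102), Zfp362 (0.0143), Zfp51 (0.0179) and Zfp451 (0.0191). Without the filter on low counts, all 3 of the Pam3 calls were lost, and of these R837 calls only that of Zfp362 was kept. Single libraries decided the Pam3 count, which was 1 without WT untreated replicate 1, WT untreated replicate 2, WT untreated replicate 3, WT Pam3 2 h replicate 1, WT Pam3 2 h replicate 2, KO Pam3 2 h replicate 3, WT Pam3 4 h replicate 2, KO Pam3 4 h replicate 2, WT Pam3 6 h replicate 1, WT Pam3 6 h replicate 3, WT Pam3 8 h replicate 2 or WT Pam3 8 h replicate 3, 11 without KO Pam3 8 h replicate 1 and 9 without KO Pam3 8 h replicate 2. The R837 count was 4 without WT untreated replicate 1 or KO R837 6 h replicate 1 and 14 without WT R837 8 h replicate 3. Zfp821 (edgeR adjusted p = 0.0296) and Zfp598 (0.0298) were the other members among the 7.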

How the data were processed

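For each of the 54 libraries the authors deposited a whole-number count of reads over the exons of every gene, not normalized, with the exon width. The RPKM values are those the authors deposited, scaled to exon width and to a library total 1.09 to 1.11 times the summed count. GSNAP and GRCm38 are named in the submitters' processing notes, without a version, and the labels do not state how strand was handled. TruSeq v2 libraries were read as single ends, per the labels' protocols. Symbols and positions (GRCm38, 1-based) come from GENCODE M21, and promoter windows from RefSeq.

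Counts were tested with edgeR 4.0.16 (R 4.3.3): filterByExpr over the 18 groups (minimum count 10, minimum total 15), which kept 14970 genes, TMM scaling, 1 coefficient per group over all 54 libraries, robust glmQLFit and glmQLFTest, and Benjamini-Hochberg adjustment over all tested genes at 0.05. SEs of log2 changes were derived from the F statistic, as the absolute change over the root of F. Levels are CPM on TMM-scaled library sizes, and RPKM was used for levels between genes, not for tests. P-values rest on the spread between libraries within groups, estimated for each gene over all 18 groups together. Where the compared groups spread more than the others, this estimate can be too small for them. The fit treats libraries of different conditions as independent. Replicates were compared before they were averaged, and no pair agreed within counting noise (chi-square per degree of freedom 6.62 to 89.6). The procedure was checked on simulated counts, drawn independently and with the same spread for all genes and groups. That check does not cover groups of unequal spread or libraries that deviate together.

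A KRAB-like or SCAN-like stretch means at least 10 of 24 or 15 of 36 consensus positions in the first 500 residues, where the consensus was built from 75 and 6 of these proteins. Alternatives were DESeq2 1.42.0, RLE size factors, no filter, the replicate number as a block, a fit to the compared groups alone, a summed count of at least 54000 (35 genes), each library left out in turn, and, added after seeing the data, the rank of Y-linked level within a WT condition as a block. The members and lists were chosen with earlier results of these data known. Genes are named by a rule: up to 5 in each direction per comparison, past the threshold, at a mean of 5 CPM or more in the higher group and with no overlap between groups, the leading response differences, the extremes of RPKM, the edges of the threshold, and 18 genes of known function. Values given for Zfp871, Zfp799 and Zfp870 beside Zfp811 were chosen by position. Results outside the rule are those of a gene so named in another comparison, and were chosen after their values were seen.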

Additional observations from a re-analysis of the deposited data

Results flagged for a closer look

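The change with ligand differed between genotypes in 10 of the tests made, 3 for Pam3 and 7 for R837, by an F-test over the 4 times, with edgeR adjusted p over 14970 genes. These 3 and 7 of the 189 were smaller shares than the 4.64% and 7.47% of all tested genes that passed. For Pam3 the Zfp genes that passed were Zfp111 (edgeR adjusted p = 0.00897), Zfp597 (0.0326) and Zfp451 (0.0449). For R837 they were Zfp346 (edgeR adjusted p = 0.00705), Zfp84 (0.0102), Zfp362 (0.0143), Zfp51 (0.0179), Zfp451 (0.0191), Zfp821 (0.0296) and Zfp598 (0.0298). Without KO Pam3 8 h replicate 3 the Pam3 calls of Zfp597 (edgeR adjusted p = 0.151) and Zfp451 (0.183) were lost. Without the filter on low counts, Zfp111 (edgeR adjusted p = 0.107), Zfp597 (0.0806) and Zfp451 (0.292) did not pass for Pam3. There Zfp346 (edgeR adjusted p = 0.119), Zfp84 (0.0666), Zfp51 (0.131) and Zfp451 (0.184) did not pass for R837. Counting each library left out as an alternative, Zfp451 and Zfp597 lost their Pam3 calls in 27 and 19 alternatives. Zfp451 and Zfp51 lost their R837 calls in 8 and 4, and Zfp362 kept its call in all.

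At 8 h of Pam3, Zfp111 averaged 6.19 ± 1.02 CPM in KO libraries, against 8.76 ± 0.313 CPM in WT libraries (SD, n = 3 each, as for the means below). In untreated cells it averaged 15.8 ± 0.99 CPM in KO libraries, against 12.6 ± 0.69 CPM in WT libraries. At 2 h of Pam3, Zfp597, whose exons overlap another gene, averaged 18.1 ± 1.75 CPM in KO libraries, against 24.2 ± 3.18 CPM in WT libraries. Its 8 h means were 22.7 ± 3.54 CPM in KO libraries, against 18.3 ± 1.31 CPM in WT libraries. Zfp451 was called higher in KO at 8 h of Pam3 (log2 change 0.51 ± 0.093, edgeR adjusted p = 5.57e-05), with 49.9 ± 4.2 CPM in KO libraries, against 35 ± 1.91 CPM in WT libraries.

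Zfp346 averaged 9.75 ± 1.94 CPM in KO libraries, against 8.51 ± 0.616 CPM in WT libraries, at 4 h of R837. After 8 h of R837 the means were 8.56 ± 0.631 CPM in KO libraries, against 12.4 ± 1.25 CPM in WT libraries. At 4 h of R837, Zfp84 averaged 21.7 ± 0.745 CPM in KO libraries, against 13.8 ± 1.21 CPM in WT libraries (log2 change 0.65 ± 0.12, edgeR adjusted p = 5.74e-05). Zfp362 at 6 h averaged 10.2 ± 0.617 CPM in KO libraries, against 6.84 ± 0.464 CPM in WT libraries (log2 change 0.58 ± 0.16, edgeR adjusted p = 0.00798). For Zfp51 at 2 h the means were 7.58 ± 0.886 CPM in KO libraries, against 4.83 ± 0.656 CPM in WT libraries (log2 change 0.65 ± 0.16, edgeR adjusted p = 0.0158). Zfp821 averaged 19.6 ± 1.01 CPM in KO libraries, against 36.4 ± 2.21 CPM in WT libraries, at 6 h, and for Zfp598 the 8 h means were 28.2 ± 5.09 CPM in KO libraries, against 26.2 ± 3.83 CPM in WT libraries.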

How the results depend on the processing

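The WT responses kept their balance: under every alternative but that of the 35 genes with most counts, each of the 16 counts of Zfp genes higher or lower than in untreated WT stayed within 1.5 times its value. Among those 35 genes decreases exceeded increases by at most 2, and at 4 and 6 h of Pam3 and 8 h of R837 more rose than fell. The 35 were chosen by counts that include treated libraries, so the response itself had a part in their choice. Counts of genotype and ligand differences moved more. Counts of called Zfp genes that moved by more than 1.5 times are given as the new count with the first count in brackets; the cause was not tested. With DESeq2 they were KO Pam3 4 h higher 3 (1), KO Pam3 2 h lower 3 (1), KO Pam3 4 h lower 5 (1), KO Pam3 6 h lower 6 (1), Pam3 response difference 8 (3) and R837 response difference 15 (7). With RLE size factors they were KO Pam3 4 h lower 2 (1) and KO Pam3 6 h lower 3 (1). In fits to the compared groups alone they were KO Pam3 6 h higher 1 (2), KO Pam3 8 h higher 1 (18), KO R837 6 h higher 20 (13), KO untreated higher 1 (0), KO Pam3 4 h lower 4 (1), KO Pam3 6 h lower 0 (1), KO Pam3 8 h lower 1 (14), R837 against Pam3 8 h lower 4 (9), Pam3 response difference 1 (3) and R837 response difference 16 (7). Without the filter they were KO Pam3 6 h higher 1 (2), KO Pam3 8 h higher 10 (18), KO R837 8 h higher 6 (12), KO untreated higher 1 (0), R837 against Pam3 2 h higher 6 (11), KO Pam3 2 h lower 3 (1), KO Pam3 4 h lower 7 (1), KO Pam3 6 h lower 5 (1) and Pam3 response difference 5 (3). Among the 35 genes with at least 54000 counts they were WT Pam3 2 h higher 10 (19), WT Pam3 4 h higher 12 (26), WT Pam3 6 h higher 9 (21), WT Pam3 8 h higher 9 (24), WT R837 2 h higher 9 (17), WT R837 4 h higher 8 (17), WT R837 6 h higher 10 (22), WT R837 8 h higher 10 (29), WT Pam3 2 h lower 11 (120), WT Pam3 4 h lower 6 (77), WT Pam3 6 h lower 7 (71), WT Pam3 8 h lower 11 (73), WT R837 2 h lower 11 (105), WT R837 4 h lower 10 (124), WT R837 6 h lower 10 (109) and WT R837 8 h lower 9 (95). With the replicate block they were KO Pam3 4 h higher 2 (1), KO Pam3 2 h lower 2 (1), KO Pam3 6 h lower 2 (1) and Pam3 response difference 5 (3). With the Y-linked range as a block in WT, an alternative chosen after seeing the data, they were KO Pam3 4 h higher 3 (1), KO untreated higher 1 (0), KO Pam3 2 h lower 2 (1), KO Pam3 4 h lower 4 (1), KO Pam3 6 h lower 3 (1), Pam3 response difference 7 (3) and R837 response difference 11 (7). With each library left out in turn the counts ranged as follows: KO Pam3 2 h higher 0 to 1, KO Pam3 2 h lower 0 to 2, KO Pam3 4 h higher 1 to 2, KO Pam3 4 h lower 0 to 7, KO Pam3 6 h higher 1 to 3, KO Pam3 6 h lower 0 to 9, KO Pam3 8 h higher 8 to 27, KO Pam3 8 h lower 10 to 23, KO R837 2 h higher 0 to 2, KO R837 4 h higher 7 to 14, KO R837 4 h lower 4 to 8, KO R837 6 h higher 7 to 12, KO R837 8 h higher 5 to 10, KO R837 8 h lower 11 to 17, R837 against Pam3 2 h higher 0 to 16, R837 against Pam3 2 h lower 4 to 7, R837 against Pam3 6 h higher 7 to 10, R837 against Pam3 6 h lower 37 to 41, R837 against Pam3 8 h higher 3 to 8, R837 against Pam3 8 h lower 2 to 9, Pam3 response difference 1 to 11 and R837 response difference 4 to 14. Same-numbered libraries of a genotype had median correlations of deviations between -0.037 and 0.12 over all conditions. In WT these medians mix untreated cells and R837, where replicate numbers followed the Y-linked range, with Pam3, where the order differed. Low medians thus do not show that same-numbered WT libraries are unpaired. Of the genes named, the replicate block moved only 1 past the threshold and 1 back under it. WT libraries of the same Y-linked range did deviate together across conditions, with median correlations of 0.289, 0.169 and 0.0787 in the lowest, highest and middle range, and that block, which takes out the shared deviation, changed the call of 1 gene named, Zfp106 at 2 h of Pam3, which passed the threshold. Among single genes 2 reversed, both uncalled: in WT with each library left out, Zfp326 at R837 4 h ranged between log2 changes of -0.0648 and 0.0662, and Zfp593 at Pam3 2 h between -0.151 and 0.0648. By the number of alternatives that lost the call, the most fragile were the Pam3 response differences of Zfp451 and Zfp597. In the fits to compared groups alone, WT Pam3 2 h and KO untreated held 188 of the 189 genes. Genes at 0 or few counts, above all Zfp811 untreated, are limited by depth.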
